A study of Mus musculus with 6 samples.

Results

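The 38 Hox genes described here lie in 4 clusters of the mouse genome, 10 in Hoxa on chromosome 6, 10 in Hoxb on chromosome 11, 9 in Hoxc on chromosome 15 and 9 in Hoxd on chromosome 2 (GRCm38). Their members are the CpG cytosines from 2 kb below the start to 2 kb above the end of each gene span, counted once each and covered by at least 10 reads in all 6 libraries. This gave 4142 cytosines of 1457048 measured in all 6 libraries, 1159 in Hoxa, 915 in Hoxb, 804 in Hoxc and 1264 in Hoxd, and all 38 genes held at least 30 of them. The libraries were made by enhanced reduced representation bisulfite sequencing (ERRBS), which reads methylation at single cytosines of CpG-rich fragments, from naive B cells of the spleen, which have not yet met antigen. The mice were Tet2 knockout (KO, n = 3 libraries) or Tet2 wild type (WT, n = 3 libraries), all C57BL/6. The sources used here do not give the kind of knockout allele, the cell types that carry it, the age of the mice or whether each library came from its own mouse. The p-values therefore describe only how these libraries vary, which may be in part technical. The sample labels and the title give naive B cells and were followed, although the submitters' design text gives germinal centre B cells.

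Hox genes encode homeodomain transcription factors that specify position along the body axis, and paralogous genes share a number from the anterior end (low numbers) to the posterior end (high numbers) of a cluster. In blood, several Hoxa and Hoxb genes are active in stem and progenitor cells and are turned down as cells mature, and silent Hox clusters are textbook targets of Polycomb repression, which marks CpG-rich DNA that mostly lacks methylation. TET2, an enzyme often lost in human blood cancers, oxidises 5-methylcytosine and so helps to remove methylation. Bisulfite sequencing reads 5-methylcytosine and its first oxidation product, 5-hydroxymethylcytosine, alike, so a methylation level here is the sum of both. In a bulk library a level between 0 and 100% can mean that some cells, or some alleles within cells, are methylated, and these cannot be told apart.

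Each library held 1551481 to 1626375 cytosines and 168455105 to 207065050 reads over them, with a median coverage of 92 to 110 reads. Within Tet2, 6 cytosines of chromosome 3 from 133486189 to 133486297 reached 10 reads in no KO library, against 28 to 71 reads in every WT library. Another 111 Tet2 cytosines reached 10 reads in all 6 libraries. In the Hox clusters, 3 of the 4669 cytosines held by any library also reached 10 reads in every WT and no KO library. Gene ends of the defining markers were sparsely measured, and those with at least 3 cytosines included the B cell markers Cd79b (1.47%) and Cd22 (34.7%) and 3 of 7 T cell markers (87.8% at Zap70, 95.4% at Lck and 0.533% at Cd4). Of the other lists, 1 of 6 myeloid markers (92.9% at Elane), 2 of 4 erythroid markers and 2 of 2 plasma cell markers (0.469% at Sdc1, 10.2% at Prdm1) had a value, and no NK cell marker had. The marker ends therefore give only a partial check of the labelled cell type. Median coverage of the Hox cytosines was 105, 112 and 126 reads in the KO libraries, against 142, 138 and 125 reads in the WT libraries. Coverage of Hoxc was below WT in every KO library (102, 91.5 and 116 reads in KO, against 138, 132.5 and 120 reads in WT), and its part in the differences below was not tested.

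Promoters that span the range of methylation, chosen after their levels were seen, are shown as sequence, each the 250 bases before the annotated start of its gene (RefSeq, GRCm38.p6, all on the minus strand of chromosome 6 except Hoxd4, on the plus strand of chromosome 2). RefSeq promoters were held for 22 of the 38 genes, at 24 starts, of which 11 had at least 3 measured cytosines. Capitals mark the CpG dinucleotides with a cytosine measured in all 6 libraries, and lower-case cg dinucleotides were not measured in all of them. The first is the promoter of Hoxa5 (52204588 to 52204837), which was almost fully methylated. The second is that of its neighbour Hoxa6 (52208673 to 52208922), and the third that of Hoxa13 (52260881 to 52261130), which both had almost no methylation. The last is that of Hoxd4 (74721728 to 74721977), which was partly methylated and poor in CpGs.
Hoxa5: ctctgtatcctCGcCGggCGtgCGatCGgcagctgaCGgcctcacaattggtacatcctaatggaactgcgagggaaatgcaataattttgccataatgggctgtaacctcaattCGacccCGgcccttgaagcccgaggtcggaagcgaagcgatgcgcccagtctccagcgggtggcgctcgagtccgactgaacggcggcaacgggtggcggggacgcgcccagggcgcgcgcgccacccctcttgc
Hoxa6: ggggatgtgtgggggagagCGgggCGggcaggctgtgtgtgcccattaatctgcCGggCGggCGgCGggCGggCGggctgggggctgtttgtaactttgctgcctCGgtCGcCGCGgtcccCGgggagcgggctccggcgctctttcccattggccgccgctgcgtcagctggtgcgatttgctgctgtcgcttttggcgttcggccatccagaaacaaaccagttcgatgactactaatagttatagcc
Hoxa13: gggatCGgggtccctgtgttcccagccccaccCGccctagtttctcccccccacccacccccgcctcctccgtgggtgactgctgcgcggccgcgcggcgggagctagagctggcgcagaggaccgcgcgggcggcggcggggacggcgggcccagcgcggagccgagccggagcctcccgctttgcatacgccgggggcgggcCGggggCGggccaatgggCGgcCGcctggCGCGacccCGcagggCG
Hoxd4: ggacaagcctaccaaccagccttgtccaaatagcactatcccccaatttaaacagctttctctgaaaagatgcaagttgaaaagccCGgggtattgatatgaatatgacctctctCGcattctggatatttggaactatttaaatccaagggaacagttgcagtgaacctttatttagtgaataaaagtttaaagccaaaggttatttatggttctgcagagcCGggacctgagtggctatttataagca

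CpG content alone did not order these promoters. The Hoxa5 promoter holds 28 CpGs, as many as or more than all but 7.61% of the 32851 promoters in the table, and its 9 measured cytosines had a mean level of 87.7, 92.1 and 89.6% in the KO libraries, against 91.4, 94.5 and 92.5% in the WT libraries. The Hoxa6 promoter holds 24 CpGs, and its 17 measured cytosines stood at 1.95, 1.69 and 1.30% in KO, against 1.74, 1.85 and 0.761% in WT. The Hoxa13 promoter, with 35 CpGs, stood between 0.0366 and 0.237% in the 6 libraries. The genotypes overlapped at all 3 of these promoters. The Hoxd4 promoter holds 3 CpGs and stood at 27.1, 23.2 and 25.6% in KO, against 26.4, 23.7 and 28.3% in WT. Of the 11 promoters with at least 3 measured cytosines, 7 were under 5% and 1, that of Hoxa5, was over 70%. At 2 of the 11 the genotypes did not overlap, each with KO above WT, against 5.4% of the 10048 promoters of the table with as many cytosines (3.71% with KO below WT): an internal start of Hoxd11 (4.56 ± 0.219% in KO and 3.45 ± 0.340% in WT, SD, n = 3 each) and the start of Hoxd1 (3.41 ± 0.217% in KO and 2.90 ± 0.235% in WT, SD, n = 3 each).

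Across all Hox cytosines the mean level was low, and each cytosine counted equally. It was 14.03, 14.14 and 13.87% in the KO libraries, against 13.74, 13.65 and 13.57% in the WT libraries, where the rest of the genome stood at 33.6 to 33.8% in KO and 33.3 to 33.5% in WT. The clusters formed 2 levels. Hoxa (24.6 ± 0.0903% in KO, 23.9 ± 0.109% in WT) and Hoxb (17.2 ± 0.337% in KO, 17.01 ± 0.165% in WT) stood above Hoxd (6.89 ± 0.0910% in KO, 6.63 ± 0.126% in WT) and Hoxc (6.37 ± 0.141% in KO, 6.14 ± 0.127% in WT; SD, n = 3 libraries each). Within each library the order was Hoxa, Hoxb, Hoxd and Hoxc, and within each genotype the libraries' values of neighbouring clusters in this order did not overlap.

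The Hox clusters differed from the rest of the genome in how levels were distributed. Under 10% methylation lay 75.4% of the Hox cytosines and 60.5% of the rest, and at 90% or above lay 4.51% of the Hox cytosines and 26.3% of the rest. At 10 to 30% lay 11.4% of the Hox cytosines and 3% of the rest. Among cytosines under 10%, the mean was 2.76 ± 0.113% in KO and 2.72 ± 0.0608% in WT for Hox, but 0.948 ± 0.0498% in KO and 0.882 ± 0.0146% in WT for the rest (SD, n = 3 each). No methylated read in any library was found at 6.74% of the Hox cytosines, against 24.3% of all cytosines. The 55 other homeobox genes analysed, developmental regulators outside the clusters, showed a like low class (2.59 ± 0.0600% in KO, 2.47 ± 0.0670% in WT) on 9642 cytosines, with an overall mean of 5.70 ± 0.0778% in KO and 5.55 ± 0.0679% in WT. The Hox mean exceeded that of these genes by 8.05 to 8.42 percentage points in the 6 libraries.

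The Hox clusters also differed from the genome in how level followed CpG density, counted as measured cytosines within 250 bp, the cytosine itself included. In Hox the mean level was 39.6% at a count of 1 to 4 and 10.1% at 30 or more. In the rest of the genome it was 82.9% at 1 to 4 and 1.94% at 30 or more. In the other homeobox genes it was 25.6% at 1 to 4 and 2.43% at 30 or more. Sparse Hox cytosines were thus lower than those of the rest of the genome but not than those of the other homeobox genes, and dense Hox cytosines were higher than both. At 30 or more, 6.28% of the Hox cytosines stood at 70% or above, all of them in Hoxa (88 cytosines) and Hoxb (32 cytosines), against 0.861% in the rest and 0 of 5041 in the other homeobox genes. These cytosines are neighbours and share reads, so the shares describe the loci and carry no test.

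**Figure D1:**
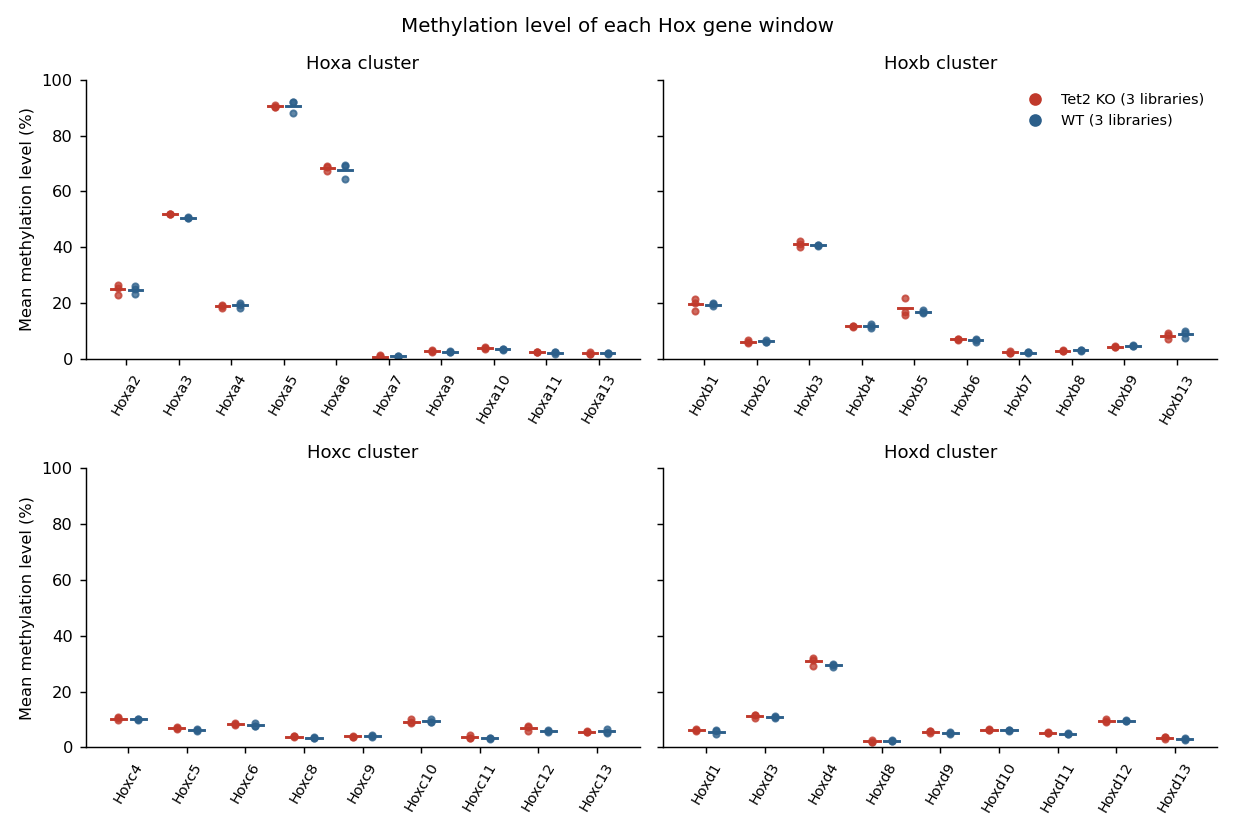
Mean methylation level (%) of the window of each Hox gene, its span and 2 kb on each side, in Tet2 KO (red) and WT (blue) naive B cells; points are libraries (n = 3 per genotype) and bars their mean. Hoxa5, Hoxa6 and Hoxa3 stand above 50%, and the posterior genes, numbers 9 to 13, all stand under 10% on average.

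Ordered by paralogue number over all clusters together, methylation was highest in the anterior genes, and in the central genes it lay in Hoxa. Within Hoxa the order differed, and the central zone stood above the anterior zone in every library. Windows of the 11 anterior genes (numbers 1 to 4) had a combined level of 30.1 ± 0.221% in KO and 29.4 ± 0.161% in WT, those of the 11 central genes (5 to 8) 17.6 ± 0.227% in KO and 17.3 ± 0.623% in WT, and those of the 16 posterior genes (9 to 13) 4.85 ± 0.140% in KO and 4.69 ± 0.125% in WT (SD, n = 3 each). KO lay above WT without overlap in the combined anterior level, and the genotypes overlapped in the combined central and posterior levels. By cluster, the anterior level was without overlap only in Hoxa (1.26 points). The anterior levels of Hoxb (0.214 points), Hoxc (0.316 points) and Hoxd (0.403 points) overlapped. Of the central and posterior levels by cluster, only the posterior level of Hoxd was without overlap (0.234 points, KO above WT). The anterior windows of Hoxa include the Hoxa3 tile described below, and the zone was not tested without it. The central zone of Hoxa stood at 56.1% in KO and 55.6% in WT, whereas those of Hoxb (5.93% in KO, 5.63% in WT), Hoxc (6.78% in KO, 6.35% in WT) and Hoxd (2.19% in KO, 2.25% in WT) lay in the range of the posterior windows. Every posterior window had a mean over the 6 libraries between 1.87% (Hoxa13) and 9.5% (Hoxd12). The central windows ranged much more widely, between 0.781% (Hoxa7) and 90.6% (Hoxa5). Neighbouring windows overlap, and 336 of the 491 cytosines of the long Hoxa3 span also belong to other Hox genes, so genes are not independent points. All 122 cytosines of Hoxa5 and all 143 of Hoxa6 lie in this span, so they count in both the anterior and the central level.

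In Hoxa, the 2 highest windows were those of Hoxa5 and Hoxa6. Hoxa5, which patterns the lung and the neck and upper thoracic skeleton, is at chromosome 6, 52201754 to 52204587; its 122 cytosines stood at 90.2, 91.0 and 90.3% in KO, against 88.0, 92.0 and 91.9% in WT. Hoxa6, a thoracic patterning gene at 52204858 to 52208672, stood at 67.3, 69.0 and 68.8% in KO, against 64.3, 69.1 and 69.6% in WT. The genotypes overlapped at both genes. The 2 lowest windows were those of Hoxa7 (0.735 ± 0.574% in KO, 0.827 ± 0.135% in WT), next on the chromosome, and Hoxa13 (1.86 ± 0.427% in KO, 1.89 ± 0.145% in WT), which shapes the digits and the genital tract. Hoxa9 and Hoxa10, regulators of blood progenitors and drivers of human acute leukaemia, stood at 2.70 ± 0.521% and 3.82 ± 0.448% in KO, against 2.50 ± 0.102% and 3.33 ± 0.106% in WT.

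In Hoxb, the highest windows were those of Hoxb3 (96307101 to 96347930 on chromosome 11), a hindbrain patterning gene, and Hoxb1, which specifies the hindbrain segment of the facial nerve. Hoxb3 stood at 40.9, 42.1 and 40.1% in KO, against 40.8, 40.8 and 40.5% in WT, and Hoxb1 at 19.6 ± 2.11% in KO and 19.4 ± 0.518% in WT. The lowest were Hoxb7 (2.27 ± 0.283% in KO, 2.18 ± 0.244% in WT) and Hoxb8 (2.82 ± 0.295% in KO, 3.01 ± 0.238% in WT), a gene that holds myeloid progenitors in an immature state when overexpressed. Hoxb4, which expands blood stem cells when overexpressed, stood at 11.6 ± 0.345% in KO and 11.8 ± 0.640% in WT. Hoxb5, a marker of long-term blood stem cells in mice, had 1 library apart: 15.6, 21.6 and 16.8% in KO, against 16.3, 16.6 and 17.6% in WT.

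In Hoxc, no window reached 11% on average. Hoxc4, a homeodomain factor known to activate the gene of the antibody-diversifying deaminase AID in B cells, was highest (chromosome 15, 103018097 to 103036856; 9.73, 10.8 and 10.4% in KO, against 9.71, 10.2 and 10.1% in WT), followed by Hoxc10, a lumbar patterning gene (9.23 ± 0.756% in KO, 9.40 ± 0.692% in WT). The lowest were Hoxc11 (3.75 ± 0.576% in KO, 3.19 ± 0.208% in WT) and Hoxc8 (3.88 ± 0.297% in KO, 3.5 ± 0.268% in WT). None of the 804 Hoxc cytosines reached a mean of 70%.

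In Hoxd, methylation was concentrated at Hoxd4 and the Hoxd3 span that covers it. Hoxd4 (chromosome 2, 74721978 to 74729160), which patterns the hindbrain and neck vertebrae, stood at 31.4, 32.0 and 29.2% in KO, against 29.7, 29.6 and 28.7% in WT. Hoxd3 stood at 11.2 ± 0.536% in KO and 10.9 ± 0.264% in WT. The lowest were Hoxd8 (2.19 ± 0.4% in KO, 2.25 ± 0.233% in WT) and the digit gene Hoxd13 (3.34 ± 0.370% in KO, 3 ± 0.226% in WT).

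**Figure D2:**
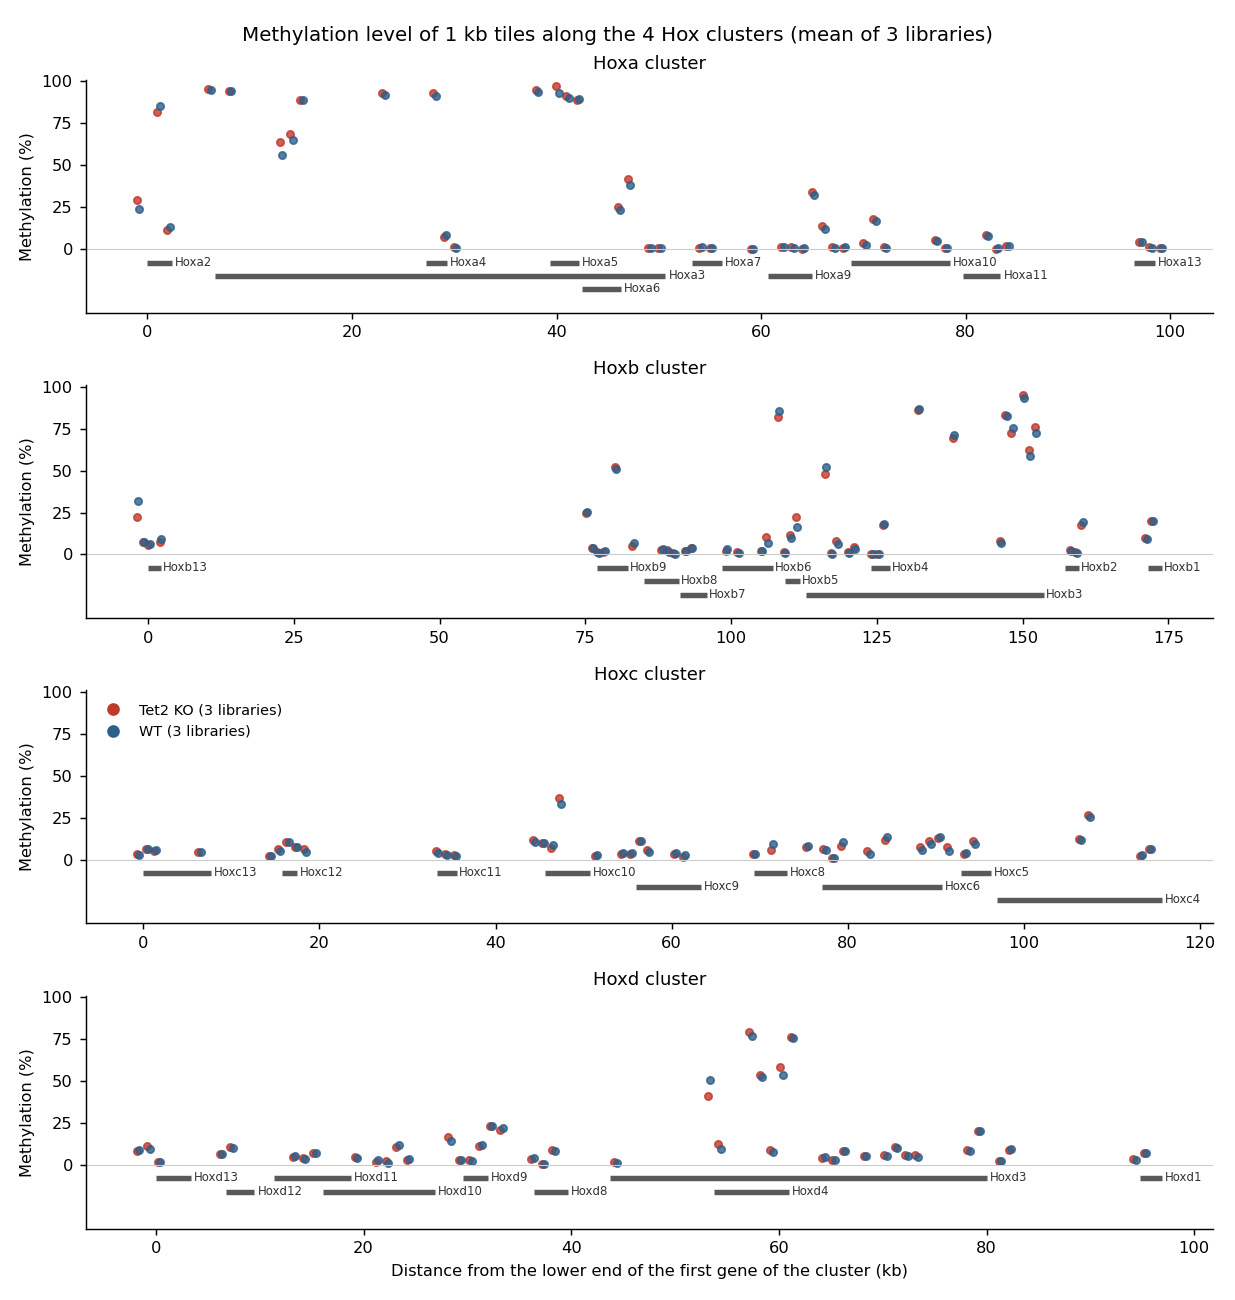
Methylation level (%) of 1 kb tiles with at least 3 measured cytosines along the 4 clusters, against the distance in kb from the lower end of the first gene; red points are means of 3 Tet2 KO libraries, blue points of 3 WT libraries, and grey bars gene spans. Levels change abruptly in the Hoxa3 to Hoxa6 and Hoxb6 to Hoxb3 stretches and stay mostly under 25% in Hoxc and in Hoxd outside Hoxd4.

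Along the chromosome, 1 kb tiles gave the extent of methylated and unmethylated stretches. The clusters held 170 tiles with at least 3 cytosines, of which 109 (64.1%) were under 10%, 53 between 10 and 90%, and 8 (4.71%) at 90% or above, against 24.1%, and 48.8% at 90% or above, among the 108943 tiles of the genome. Runs were counted over consecutive measured tiles, so that unmeasured gaps can lie within them. The longest run under 10% in Hoxa had 9 tiles over 28 kb (52234001 to 52262000) and covered Hoxa10, Hoxa11 and Hoxa13. In Hoxb it had 10 tiles over 24 kb (96277001 to 96301000, Hoxb8 to Hoxb6), in Hoxc 10 tiles over 26 kb (102978001 to 103004000, Hoxc9 to Hoxc6), and in Hoxd 6 tiles over 10 kb (74681001 to 74691000, Hoxd11 and Hoxd10). The mean level over the tiles of these runs was 2.58% in KO and 2.53% in WT for Hoxa, 3.29% in KO and 3.03% in WT for Hoxb, 4.93% in KO and 5.18% in WT for Hoxc, and 4.22% in KO and 4.15% in WT for Hoxd.

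Stretches of intermediate methylation were shorter. The longest run between 10 and 90% had 3 tiles in Hoxa (52204001 to 52210000, Hoxa5 to Hoxa6), 3 in Hoxb (96320001 to 96333000, Hoxb4 and Hoxb3), 3 in Hoxc (103015001 to 103029000, Hoxc5 and Hoxc4) and 4 in Hoxd (74721001 to 74727000, Hoxd4). Their mean levels were 52.0% in KO and 50.4% in WT for Hoxa, 57.7% in KO and 58.7% in WT for Hoxb, 16.8% in KO and 15.8% in WT for Hoxc, and 46.7% in KO and 47.4% in WT for Hoxd. In each cluster the per-library values of these runs overlapped between the genotypes. The longest run at 70% or above, 4 tiles from 52200001 to 52205000, held Hoxa5 and averaged 93.2% in KO and 91.7% in WT. Its last tile, 52204001 to 52205000, had 75 cytosines at 88.4, 90.1 and 88.8% in KO, against 86.2, 91.2 and 91.0% in WT. A methylated tile this dense was rare, since only 46 of the 6320 tiles of the genome with at least 50 cytosines (0.728%) stood at 70% or above.

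Neighbouring tiles jumped by at least 50 points at 4 of 98 places in the clusters (4.08%), against 11.1% of 24179 neighbouring pairs in the genome. The lower and upper sides of these jumps were 83.7% and 12.3% within Hoxa2, 92.0% and 7.80% within Hoxa4, 83.6% and 1.31% between Hoxb6 and Hoxb5, and 7.54% and 82.9% within Hoxb3 (means over the 6 libraries). Between Hoxb6 and Hoxb5 the drop was 80.3, 79.0 and 81.0 points in KO, against 83.2, 84.6 and 85.7 points in WT. The genotypes did not overlap there (exact permutation test, two-sided p = 0.1, the smallest that 3 against 3 libraries allow); the methylated side rests on 4 cytosines, and this jump was singled out after the values were seen. At the other 3 jumps the genotypes overlapped.

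**Figure D3:**
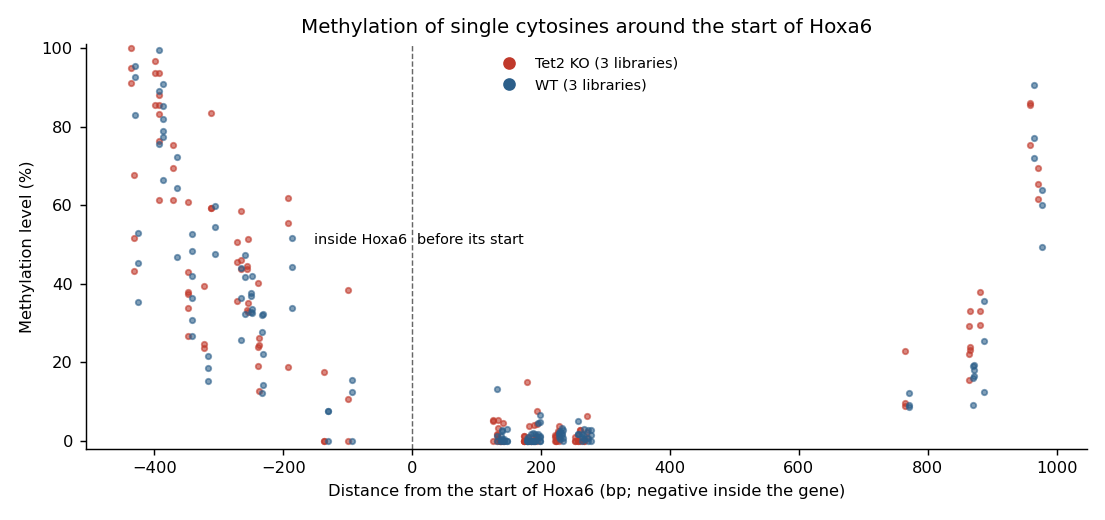
Methylation level (%) of single cytosines around the start of Hoxa6 against the distance from the start in bp, plotted as negative inside the gene and positive before its start; each point is 1 cytosine in 1 library, red Tet2 KO and blue WT, drawn 6 bp apart for visibility. Levels fall towards the start inside the gene, stay near 0 before it, and are up to 81.1% (mean of the 6 libraries) about 1 kb before it.

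At the start of Hoxa6, chosen after its values were seen, the change could be followed by single cytosines. Over 337 bp at the inner side of the start, 19 cytosines spanned means between 92.8 and 5.47%, and the 22 cytosines measured within 500 bp before the start all lay between 0.0947 and 4.09%. On the sloping side the mean level was 42.7, 50.8 and 54.8% in KO, against 38.1, 45.7 and 50.2% in WT, with 16 of the 19 cytosines higher in KO. The spread within a genotype (SD 6.14 points in KO and 6.11 points in WT) exceeded the difference of 4.82 points, and the genotypes overlapped (exact permutation test, two-sided p = 0.4). On the unmethylated side the mean was 1.54 ± 0.329% in KO and 1.49 ± 0.412% in WT (SD, n = 3 each). Farther out, 6 cytosines from 52209440 to 52209646, before the start, stood at 41.0, 43.0 and 38.1% in KO, against 28.2, 35.0 and 39.3% in WT, also overlapping.

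The comparison of KO with WT addressed how the loss of Tet2 changes methylation, here in the Hox clusters. Over all Hox cytosines KO lay above WT in every library, by 0.358 points on average. Hoxa lay 0.710 points higher, Hoxd 0.256 and Hoxc 0.236 points, each with no overlap between the genotypes. These separations depended on equal weighting. With reads pooled over cytosines the genotypes overlapped for all Hox cytosines (0.531 points, exact permutation p = 0.3), Hoxa (0.9998 points, p = 0.6), Hoxc (0.277 points, p = 0.4) and Hoxd (0.126 points, p = 0.5). Over gene spans with no flank the differences were 0.1 points for Hoxc (exact permutation p = 0.5) and 0.284 points for Hoxd (p = 0.2). In Hoxb the difference was 0.161 points and the genotypes overlapped. The rest of the genome differed by 0.344 points, also without overlap, and the difference between the Hox shift and that of the rest was 0.0139 points (two-sided exact permutation test, p = 0.9). Hoxa exceeded the shift of the rest by 0.366 points, without overlap (two-sided exact permutation test, p = 0.1). Within Hoxa the difference rested largely on 1 tile in the Hoxa3 span, described below: without its 57 cytosines, a comparison added after the data were seen, Hoxa differed by 0.297 points with overlap (exact permutation test, two-sided p = 0.2), and all Hox cytosines by 0.242 points without overlap. In all, 7 level comparisons were listed for testing, and the non-overlapping ones reached p = 0.1, the smallest value possible, which is 0.14 after Benjamini-Hochberg adjustment over the 7; Hoxb had an exact permutation p of 0.5 (0.583 adjusted). Median coverage of the Hox cytosines, given above, was higher in 2 of the 3 WT libraries than in any KO library, and its part was not tested.

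**Figure D4:**
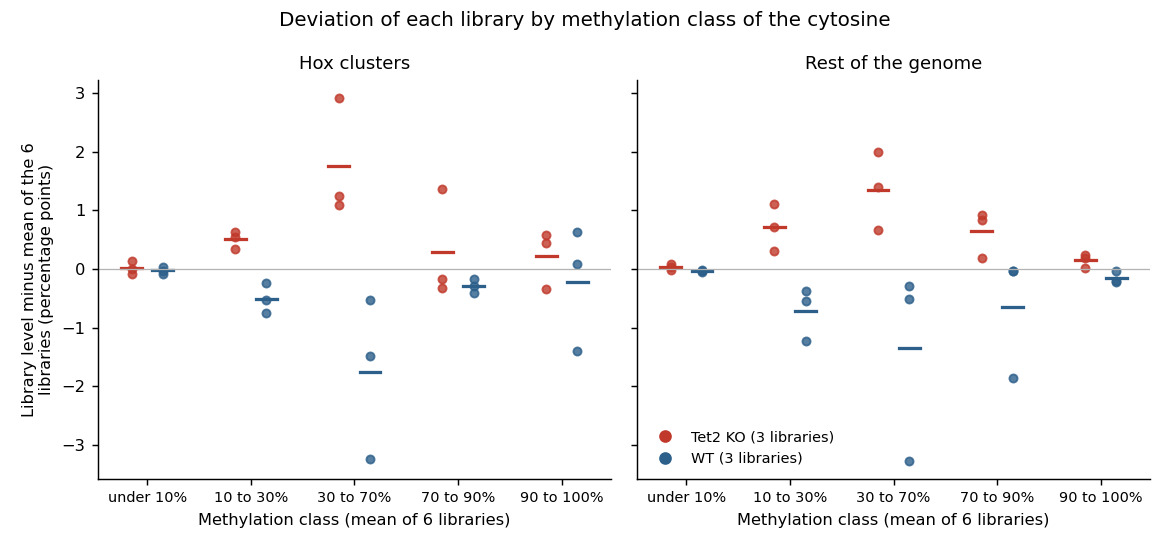
Level of each library minus the mean of the 6 libraries (percentage points) by the methylation class of the cytosine, for the Hox clusters (left) and the rest of the genome (right); points are libraries, red Tet2 KO and blue WT (n = 3 each), and bars their mean. In both panels the genotypes lie farthest apart at 30 to 70%, by 3.51 points in Hox and 2.71 points in the rest.

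The difference was largest in cytosines of intermediate level. At 10 to 90% methylation, 833 Hox cytosines stood at 38.05, 38.08 and 37.76% in KO, against 36.9, 36.4 and 36.1% in WT, a difference of 1.51 points without overlap. In the same class the rest of the genome differed by 1.72 points. Hox minus the rest changed by -0.211 points between KO and WT (exact permutation test, two-sided p = 1, overlapping), so no difference in shift between the Hox clusters and the genome was detectable with these libraries. Among Hox cytosines at 30 to 70% the difference was 3.51 points (52.8 ± 1.02% in KO, 49.3 ± 1.38% in WT), at 10 to 30% it was 1.02 points (16.99 ± 0.147% in KO, 16.0 ± 0.255% in WT), and below 10% it was 0.0463 points with overlap. Of the clusters, Hoxa had the largest difference at 30 to 70%. Its 82 cytosines at 30 to 70% stood at 55.9, 55.5 and 57.6% in KO, against 50.6, 49.3 and 46.9% in WT, a difference of 7.36 points, where the 62 such cytosines of Hoxb differed by 0.177 points and overlapped. Relative to the same class of the rest of the genome the Hoxa difference was 4.65 points, with overlap (exact permutation test, two-sided p = 0.2). Of the 82 cytosines, 32 lie in the Hoxa3 tile described below; without them the Hoxa difference was 4.94 points with overlap, and that of all Hox cytosines at 30 to 70% was 1.99 points without overlap. Hoxb at 30 to 70% lay below the shift of the rest by 2.54 points (difference -2.54, without overlap, exact permutation test, two-sided p = 0.1). This rested in large part on WT replicate 1, without which it was -0.962 points.

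Gene windows were tested with a quasi-binomial model of methylated and unmethylated reads, adjusted over all 16438 gene windows of the genome with at least 5 cytosines, and a call required 10 points of difference or more besides an adjusted p below 0.05. None of the 38 Hox windows was called, and none of the genome was (0% called in either direction). With no adjustment, 0 Hox windows had a p below 0.05 in this test, against 21.9% of all windows higher and 0.189% lower in KO. Limma and edgeR on the same reads also gave 0 Hox windows. Over all 16438 windows limma gave 2766 higher and 103 lower, and edgeR 3137 higher and 77 lower. With equal weights, limma gave 3 of the 38 Hox windows higher at that p and 0 lower, against 1540 higher and 175 lower of the 16438. Without WT replicate 1 the quasi-binomial test gave 2 of the 38 higher and 0 lower, against 2827 higher and 40 lower of the 16438. The smallest p-values among higher Hox windows were those of Hoxc12, Hoxc11 and Hoxd3, and among lower ones those of Hoxb13, Hoxc9 and Hoxb4. Hoxc12, a posterior gene, had a level of 7.50, 6.01 and 7.13% in KO, against 5.36, 5.77 and 6.21% in WT, and the groups overlapped; its pooled difference was 1.13 points (adjusted p = 0.377). Hoxb13, a prostate gene, had 9.23, 7.02 and 8.45% in KO, against 9.79, 9.34 and 7.53% in WT, with a pooled difference of -0.971 points (adjusted p = 0.624). The remaining 4 had pooled differences of 0.550 points (Hoxc11), 0.633 points (Hoxd3), -0.370 points (Hoxc9) and -0.589 points (Hoxb4), with adjusted p-values of 0.423, 0.447, 0.708 and 0.787.

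The pooled test gives each cytosine the weight of its reads. Over the 38 Hox windows the median difference was 0.234 points pooled and 0.212 points when each cytosine counted equally. Over all gene windows it was 1 point pooled and 0.157 points with equal weights. With equal weights the genotypes did not overlap, KO above WT, at 3 of the 38 Hox windows, against 14.4% of all windows (2.14% KO below WT). They were Hoxa3 (51.9, 52.0 and 52.0% in KO, against 50.6, 50.7 and 50.4% in WT), Hoxc5 (7.41, 6.64 and 6.996% in KO, against 5.80, 6.48 and 6.24% in WT) and Hoxd11 (5.24, 5.40 and 5.29% in KO, against 4.90, 4.99 and 4.77% in WT). Hoxa3 controls the formation of the thymus and parathyroid, and its separation was the largest in points, at 1.37. Its window includes the 57 cytosines of the Hoxa3 tile described below, and the window was not tested without them. In pooled reads 1 of the 38, Hoxc11, was higher without overlap, against 24.9% of all windows, and none was lower, against 1.16%.

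Among the 170 Hox tiles none was called, where 0.112% of all 108943 tiles were called as higher in KO and 0% as lower. Limma and edgeR called none of the 170, and none of all 108943 tiles. Before adjustment, 9 Hox tiles were higher and 3 lower in KO with a p below 0.05, against 5.73% and 1.46% of all tiles. The genotypes did not overlap at 10 Hox tiles with KO above WT and 7 with KO below WT, against 8.34% and 3.36% of all tiles. In all, 107 of the 170 tiles were higher in KO (62.9%, against 59.7% of all tiles), and 166 of the 170 differed by less than 5 points. The median difference was 0.209 points in Hox tiles and 0.174 points over all tiles. By cluster, 28 of 41 tiles were higher in Hoxa, 26 of 44 in Hoxb, 23 of 41 in Hoxc and 30 of 44 in Hoxd.

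The Hox tile with the smallest p lay within the span of Hoxa3, at chromosome 6, 52175001 to 52176000. Its 57 cytosines stood at 67.5, 61.2 and 62.7% in KO, against 59.7, 54.7 and 53.4% in WT, so that the lowest KO library lay above the highest WT library. The pooled difference was 7.53 points (quasi-binomial test, p = 0.000383, adjusted p = 0.133), under the 10 points required and not past the threshold. Of the 57 cytosines, 46 were higher in KO and 11 lower, and at 9 the genotypes did not overlap, all with KO above WT. Of all cytosines of the genome, 2.97% were separated in that direction. The tile was picked for its small p, and its cytosines are neighbours that share reads. These counts therefore describe the tile and carry no test. Coverage there had a median of 76 reads and a lowest value of 12.

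**Figure D5:**
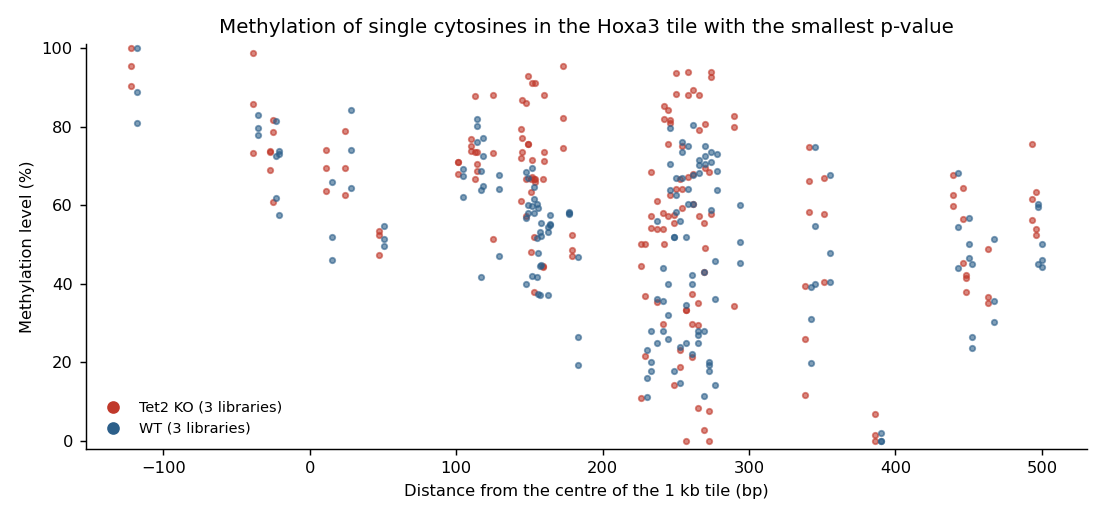
Methylation level (%) of the 57 cytosines of the tile within Hoxa3 against the distance from the tile's centre in bp; each point is 1 cytosine in 1 library, red Tet2 KO and blue WT, drawn 4 bp apart for visibility. Most cytosines lie between 20 and 90%, and the mean of KO is higher at 46 of 57.

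The same tile showed a difference between the DNA strands, noticed after its values were seen. At 15 CpGs both cytosines were measured, and the forward strand stood at 45.4, 54.5 and 42.7% in KO and 46.8, 35.8 and 36.8% in WT, while the reverse strand stood at 86.1, 64.0 and 76.7% in KO and 68.5, 62.4 and 63.1% in WT. The reverse strand was higher in all 6 libraries. On both strands the KO mean was above the WT mean, by 7.79 points on the forward and 10.9 points on the reverse strand, each with overlap between genotypes at these CpGs (exact permutation test, two-sided p = 0.3 and p = 0.2). Over the 883 Hox CpGs measured on both strands the median absolute difference was 1.10 points, and 10 CpGs differed by 30 points or more, 7 of them in this tile. In the rest of the genome 2.27% of such CpGs differed by as much. Among CpGs at 10 to 90% the share was 5.95% in Hox and 20.8% in the rest. Median coverage of these 15 CpGs was 30.5 reads on the forward and 71 reads on the reverse strand.

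The other tiles with the smallest p-values among those higher in KO were at Hoxb6 (96300001), 0.417 kb below Hoxa2 (52161001), 0.119 kb from Hoxc6 (103012001) and within Hoxb3 (96345001). The Hoxb6 tile stood at 9.95, 10.1 and 11.3% in KO, against 4.62, 6.87 and 8.42% in WT. The tile below Hoxa2, a determinant of the hindbrain and the second pharyngeal arch, stood at 28.4, 31.5 and 27.4% in KO, against 22.1, 26.7 and 22.8% in WT. Both were without overlap, with pooled differences of 4.08 and 5.29 points and adjusted p-values of 0.392 and 0.491. The tiles near Hoxc6 and in Hoxb3 overlapped between genotypes, with differences of 2.38 and 3.57 points (adjusted p = 0.573 and 0.618).

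On the lower side, the smallest p belonged to the tile at the start of Hoxd4 within the Hoxd3 span, 74721001 to 74722000 on chromosome 2, whose 8 cytosines include those of the promoter printed above. It stood at 40.71, 40.04 and 43.47% in KO, against 48.33, 51.61 and 51.39% in WT, without overlap, with a pooled difference of -8.91 points (quasi-binomial test, adjusted p = 0.300). With each cytosine weighted equally the difference was -2.37 points (limma, adjusted p = 0.872), and at the 4 cytosines of the promoter itself the genotypes overlapped. The tile 1.316 kb from Hoxb13 had 3 cytosines at 26.6, 19.7 and 20.1% in KO, against 32.4, 29.4 and 33.3% in WT, a difference of -9.74 points (adjusted p = 0.606). The other lower tiles lay near Hoxb9 (96277001, -1.86 points, no overlap), in Hoxb3 (96310001, -4.70 points, overlapping) and in Hoxc9 (102982001, -1.10 points, overlapping), with adjusted p-values of 0.686 to 0.729.

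No single Hox cytosine was called, where 5 of 1457048 cytosines were (0.000343%, all higher in KO). Unadjusted p-values below 0.05 were found for 200 Hox cytosines higher and 162 lower in KO, against 3.99% and 2.38% of all cytosines. The smallest p-values among higher cytosines were in Hoxb5 (96305016; 34.3, 47.8 and 25.2% in KO, against 10.6, 16.5 and 7.14% in WT), Hoxb6 (96300792; 16.3, 8.42 and 30.2% in KO, against 3.52, 0 and 3.90% in WT) and Hoxa3 (52175675, in the tile above; 95.5, 74.5 and 82.1% in KO, against 57.6, 58.2 and 58.1% in WT). Among lower cytosines they were in Hoxc8 (102990906; 0% in all KO libraries, against 18.7, 13.5 and 7.41% in WT), Hoxd3 (74746852; 1.20, 0 and 0% in KO, against 11.3, 15.9 and 9.57% in WT) and Hoxc13, a hair and nail gene (102921478; 0, 0 and 2.11% in KO, against 12.3, 8.25 and 13.9% in WT). The genotypes did not overlap at any of these 6, which were picked for small p-values (2.97% of all cytosines were separated with KO above and 2.25% with KO below WT), and their adjusted p-values ran from 0.703 to 0.728.

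Genes that act with Hox proteins or on the clusters were described from their gene windows, none of which was called. All 9 TALE cofactors (the Pbx, Meis and Pknox partners of Hox proteins on DNA) were tested, and 8 were higher in KO in pooled reads, 4 of them at an unadjusted p under 0.05. With each cytosine weighted equally these 4 differed by 0.0123 points (Pbx3), -0.0114 points (Meis1), -0.185 points (Meis2) and 1.33 points (Pknox2). Only Pknox2 was without overlap, with KO above WT, as were 14.4% of all windows with equal weights. Of 26 Polycomb repressors 24 were higher (8 at p under 0.05), and of 14 trithorax and H3K27 demethylase genes, which oppose them, 13 were higher (3 at p under 0.05). Of all gene windows, 21.9% were higher at that p. The median pooled differences were 2.42 points for the TALE cofactors, 0.764 points for the Polycomb genes and 1.11 points for the trithorax list, against 1 point over all windows. These counts stand beside a background of 81.0% of all windows higher in KO in pooled reads and 70.7% with equal weights. The smallest p in these lists belonged to Pbx3 (1.03 points, adjusted p = 0.131), Suz12, a core subunit of a Polycomb repressive complex (2.09 points, adjusted p = 0.131), and Kmt2c (2.04 points, adjusted p = 0.131). With each cytosine weighted equally the same 3 genes stood at 3.11 ± 0.0959% in KO and 3.10 ± 0.144% in WT (Pbx3), 4.65 ± 0.0822% in KO and 4.65 ± 0.137% in WT (Suz12), and 6.00 ± 0.0404% in KO and 5.95 ± 0.0482% in WT (Kmt2c; SD, n = 3 each), and the pooled and equal-weight values differ only in the weight of each cytosine.

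Of the genes that flank the clusters, 10 of 11 could be tested. All 10 were higher in pooled reads, 4 at an unadjusted p under 0.05, with a median of 1.74 points. Among all gene windows 81.0% were higher in pooled reads and 21.9% were higher at that p, with a median of 1 point. Skap2, next to Hoxa, had the smallest p. Its difference was 9.28 points pooled (adjusted p = 0.131) but -0.0483 points with equal weights. Skap1, an adaptor of lymphocyte adhesion next to Hoxb, stood at 82.0, 83.4 and 82.5% in KO, against 81.1, 81.9 and 80.5% in WT with equal weights, without overlap. Smug1, a DNA glycosylase gene beyond Hoxc, was separated the other way with equal weights, at 29.56, 29.03 and 29.47% in KO, against 30.08, 29.58 and 29.89% in WT. The other 8 overlapped. With equal weights 14.4% of all windows were separated with KO above WT and 2.14% with KO below WT. The caudal and ParaHox list had a median of 0.412 points and the other homeobox list 0.242 points. Of the 6 caudal and ParaHox genes, evolutionary relatives of Hox that include Cdx2 and Pdx1, 5 were higher and none at p under 0.05 (smallest p at Gsx1, -0.294 points, adjusted p = 0.576). Of the 55 other homeobox genes 42 were higher, 4 at p under 0.05, with the smallest p at Lhx4 (1.78 points, adjusted p = 0.134; 11.4 ± 0.259% in KO and 11.2 ± 0.205% in WT with equal weights).

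The clusters also hold microRNAs of the miR-10 and miR-196 families, which are known to repress Hox mRNAs. Enough cytosines within 500 bp were measured at Mir196b, between Hoxa9 and Hoxa10, and at Mir615 in the Hoxc5 span. The mature strand of Mir196b (chromosome 6, 52230129 to 52230150, minus strand, RefSeq GRCm38.p6) is shown with its seed, bases 2 to 8, in capitals.
miR-196b-5p: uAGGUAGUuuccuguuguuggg

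Its 41 neighbouring cytosines stood at 0.929, 0.899 and 0.872% in KO, against 0.908, 1.03 and 0.869% in WT, with overlap. Around the 5p strand of Mir615, 29 cytosines stood at 3.01 ± 1.29% in KO and 3.41 ± 1.64% in WT (SD, n = 3 each). Both loci thus lay in unmethylated stretches in either genotype.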

How the data were processed

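ERRBS libraries of splenic naive B cells from 3 Tet2 KO and 3 WT samples were used. Reads were aligned with Bismark to GRCm38, per the submitters' processing notes; the sources used here give no version, trimming, duplicate handling or filter. The deposited coverage is a raw count of reads per CpG cytosine and strand, with no count under 10, and methylation was deposited as the percent of reads with C and with T, per the file headers. Reads with C and T were recovered from percent and coverage (100% of values whole within rounding). Reads carry no molecular identifiers, so counting precision is not biological error.

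Gene spans came from RefSeq (GRCm38.p6), without exons. The members and lists were chosen with earlier results of these data known, and Hox genes outside the 38 were not analysed here. Levels are means over cytosines covered 10 times or more in all 6 libraries, compared between genotypes by two-sided exact permutation tests (smallest p 0.1), unadjusted unless stated. Cytosines, 1 kb tiles (at least 3 cytosines) and gene windows (at least 5, flanks of 2 kb) were tested by a quasi-binomial F test with overdispersion moderated as in limma and held at 1 or above, adjusted by Benjamini-Hochberg over the genome, and called at an adjusted p under 0.05 and 10 points. The test was checked on simulated tiles, with differences set only at levels between 30 and 70%. Of the 170 Hox tiles 11 lie in that class and 109 under 10%, so the check says little about most Hox tiles. Alternatives were other tiles and flanks, cytosines covered 20 times or more or below the 99.9th percentile of coverage, each library left out, a block by replicate number, unmoderated dispersion, no minimum difference, equal weighting, limma on log2((C + 2)/(T + 2)) and edgeR. Tools were Python 3.11.15, numpy 2.4.6, scipy 1.17.1, R 4.3.3, limma 3.58.1 and edgeR 4.0.16. Named were, by rule, the 2 highest and 2 lowest windows per cluster, the smallest p-values per direction (3 windows, 5 tiles, 3 cytosines), the longest runs, and the smallest p per list; other genes were chosen for their role or after their values were seen.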

Additional observations from a re-analysis of the deposited data

How the results depend on the processing

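No Hox tile, cytosine or gene window was called under any alternative run (16 for tiles, 11 for cytosines and 15 for windows), each library left out included. The nearest was the Hoxa3 tile without WT replicate 1, at 9.43 points and an adjusted p of 0.0457, under the 10 points required; over its alternatives the difference ran from 5.89 to 9.43 points and the adjusted p from 0.0457 to 0.904. The tile at Hoxd4 ran from -10.1 to -2.37 points. Of the level differences, the Hoxb cluster turned to -0.0166 points without KO replicate 2. Its highest value was 0.319 points when 1 library was left out and 0.707 points over all alternatives. Hox minus the rest of the genome at 10 to 90% turned to 0.631 points without WT replicate 1. The lowest value of this contrast was -0.739 points when 1 library was left out and -1.89 points over all alternatives. The cause of these changes was not tested. The Hoxb4 window turned to 0.0195 points without KO replicate 1 (lowest -1.11). The other level differences kept their sign, but with pooled reads only Hox at 10 to 90% kept its separation: all Hox between 0.296 and 0.531 points, Hoxa between 0.563 and 0.9998, Hoxc between 0.1 and 0.298, Hoxd between 0.126 and 0.328, and Hox at 10 to 90% between 1.24 and 1.72 points.

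Deviations of same-numbered KO and WT libraries correlated at 0.0481, -0.0293 and -0.00736 across all tiles at 10 to 90%. Differently numbered libraries ran from -0.0391 to 0.0533 there. Across Hox tiles the same-numbered libraries correlated at -0.0455, -0.300 and -0.183. These values cannot tell whether same-numbered samples were collected or processed together. With the replicate block the difference over all Hox cytosines stayed at 0.358 points (sign-flip test over 3 numbers, exact p = 0.25, the smallest it allows), and no Hox feature was called. Genome-wide tile calls were 122, against 0 with the block, without moderation, with limma, with edgeR and with equal weights, and between 52 and 119 with 1 library left out. Genome-wide cytosine calls were 5, against 0 to 25 with 1 library left out and 1 at a coverage of 20. Without WT replicate 3, 228 gene windows of the genome were called, against 0. The alternative without the Hoxa3 tile, added after the data were seen, left 0.297 points for Hoxa, with overlap. With 3 libraries per genotype, small shifts at low levels are at the limit of detection.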
